A study of Rattus norvegicus with 9 samples.

Results

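The 10 genes described here encode the upper, shared steps of branched-chain amino acid (BCAA) catabolism and the leucine branch that follows them. They were taken by gene name from the table of 35843 genes, all 10 were found, and each had 1 row. Expression was measured by RNA-seq in left ventricles of adult male Sprague-Dawley rats taken at day 28, with 3 rats in each of 3 groups. Group MI had a myocardial infarction by lasting ligation of the left anterior descending (LAD) artery of the heart and saline by daily gavage. Group Sham had the operation without the ligation and the same saline gavage. Group MI + DAPA (1st d) had the ligation and received dapagliflozin (DAPA), an inhibitor of the renal sodium-glucose cotransporter SGLT2, at 1 mg/kg by daily gavage from day 1 after the operation. The labels give the tissue as heart. The study says that border areas of the infarct served for most of its molecular work but speaks of left ventricles and infarct myocardium for the RNA-seq, so which region was sequenced is not settled here, and a library can hold heart muscle cells, scar-forming cells and immune cells.

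Leucine, isoleucine and valine are first stripped of their amino group by a branched-chain aminotransferase, which in the cytosol is encoded by Bcat1 and in mitochondria by Bcat2. The keto acids formed are then committed to oxidation by the branched-chain keto acid dehydrogenase (BCKDH) complex, made of the E1 subunits Bckdha and Bckdhb, the E2 core Dbt and a shared E3 subunit. The kinase Bckdk phosphorylates and inhibits the complex, and the phosphatase Ppm1k removes the phosphate and activates it. In the leucine branch, Ivd oxidises isovaleryl-CoA, and Mccc1 and Mccc2, the subunits of methylcrotonyl-CoA carboxylase, add a carboxyl group to the product. The pathway has drawn attention in heart failure because lowered expression of its genes, with build-up of keto acids, is known in failing hearts.

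The sequences just upstream of the start are shown first for the 3 members that passed the test of group MI against group Sham described below. The share of members that passed there was near that of all genes tested. The RefSeq promoter table (build GRCr8) held windows for 7 of the 10 members. Each sequence runs 5′ to 3′ on the strand of its gene and covers the 250 bases before an annotated start. Bcat1 has 2 annotated starts, at windows chr4:179777289-179777538 (upstream) and chr4:179744209-179744458 (downstream), both on the minus strand. The window of Bcat2 is chr1:105178889-105179138 and that of Ivd chr3:126305334-126305583, both on the plus strand. Capitals mark the letters CACCC or their reverse complement GGGTG, which Krüppel-like factors such as Klf15 are known to bind, and CCAAT or its reverse complement ATTGG, the letters of NF-Y sites.
Bcat1, upstream start: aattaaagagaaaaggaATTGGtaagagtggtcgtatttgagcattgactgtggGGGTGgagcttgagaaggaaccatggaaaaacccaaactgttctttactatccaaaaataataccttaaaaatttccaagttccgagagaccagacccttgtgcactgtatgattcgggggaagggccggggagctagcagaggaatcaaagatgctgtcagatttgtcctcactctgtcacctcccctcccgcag
Bcat1, downstream start: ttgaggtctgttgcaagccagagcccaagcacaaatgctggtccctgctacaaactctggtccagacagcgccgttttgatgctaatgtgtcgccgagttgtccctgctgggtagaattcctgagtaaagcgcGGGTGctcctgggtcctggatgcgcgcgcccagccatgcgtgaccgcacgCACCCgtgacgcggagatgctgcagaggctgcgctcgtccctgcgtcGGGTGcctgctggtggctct
Bcat2: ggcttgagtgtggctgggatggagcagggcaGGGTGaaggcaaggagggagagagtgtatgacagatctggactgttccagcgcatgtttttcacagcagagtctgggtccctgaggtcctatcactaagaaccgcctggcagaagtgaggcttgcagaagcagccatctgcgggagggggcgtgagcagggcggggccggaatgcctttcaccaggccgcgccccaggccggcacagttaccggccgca
Ivd: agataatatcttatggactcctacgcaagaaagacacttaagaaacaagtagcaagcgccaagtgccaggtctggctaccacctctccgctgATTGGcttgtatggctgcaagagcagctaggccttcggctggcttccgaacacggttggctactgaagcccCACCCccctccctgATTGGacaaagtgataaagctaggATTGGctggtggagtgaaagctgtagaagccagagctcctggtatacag
CACCC on either strand was present in all 8 windows of the members and in 49.2% of the 33469 windows of the same length in the table. CCAAT on either strand was present in 5 of the 8 windows against 34.0% of all windows, and the palindrome CACGTG, the E-box letters, in 0 of 8 against 5.59%. No overlap between the motifs occurs in the 4 windows printed. The Ivd window held CCAAT letters 3 times, the Bcat2 window 0 times and the downstream Bcat1 window 0 times. The downstream Bcat1 window had 19 CG dinucleotides and a GC content of 62.0%, the upstream one 5 and 46.0%. The match of letters is a description of the windows and the deposited values are per gene, so they do not tell which Bcat1 start was used.

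The values are FPKM (fragments per kilobase of transcript, scaled between libraries by a denominator of the authors), which divide by gene length, so levels of different genes may be set side by side. Because the FPKM of a gene are whole multiples of the value of 1 read, the reads behind them could be recovered: 13597239 to 17210909 per rat. Genes of the mitochondrial genome took 61.1% to 66.9% of them in group Sham, 7.07% to 19.1% in group MI and 17.5% to 32.0% in group MI + DAPA (1st d), which left 5702454 to 6570698, 12635945 to 13171891 and 11440726 to 12082280 reads for all other genes. The members therefore rested on fewer reads in group Sham, down to 32 reads for Bcat1 in 1 rat, whose exact Poisson 95% interval is 21.9 to 45.2. Such intervals cover counting error alone. The heart muscle gene Myh6 (25.2 to 329 FPKM) was present in every library. MI replicate 2 stood apart, with summed levels of 26 cardiomyocyte markers of 3600 FPKM against 9857 and 18043 in the other MI rats and of 9 lymphocyte markers of 3739 FPKM against 44.5 and 658. Fewer cells of a type and less RNA per cell cannot be told apart in such bulk samples.

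In group Sham, Bckdha, an E1 subunit, was the highest of the members at 46.4 ± 8.14 FPKM (SD, n = 3). It was followed by the kinase Bckdk at 30.9 ± 2.63, Bckdhb at 25.9 ± 8.25, Ivd at 17.5 ± 1.299, Bcat2 at 13.1 ± 0.488, Mccc2 at 12.8 ± 1.80, Mccc1 at 12.1 ± 3.14, Dbt at 7.56 ± 1.34, Ppm1k at 4.09 ± 2.41 and Bcat1 at 1.97 ± 0.905 FPKM. Among neighbours in this order, the 3 rats did not overlap between Bckdha and Bckdk, between Ivd and Bcat2 and between Mccc1 and Dbt, and overlapped in the other 6 pairs. In group MI the order was Bckdha, Ivd, Bckdk, Bckdhb, Bcat2, Bcat1, Mccc2, Dbt, Mccc1 and Ppm1k, and the Mccc1 and Ppm1k rats were the only neighbours that did not overlap. In group MI + DAPA (1st d) Bckdha was again the highest member, at 58.3 ± 17.0 FPKM, and Ppm1k the lowest, at 3.46 ± 0.455. Bcat1 thus stood last of the 10 members in group Sham, sixth in group MI and seventh in group MI + DAPA (1st d).

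**Figure D1:**
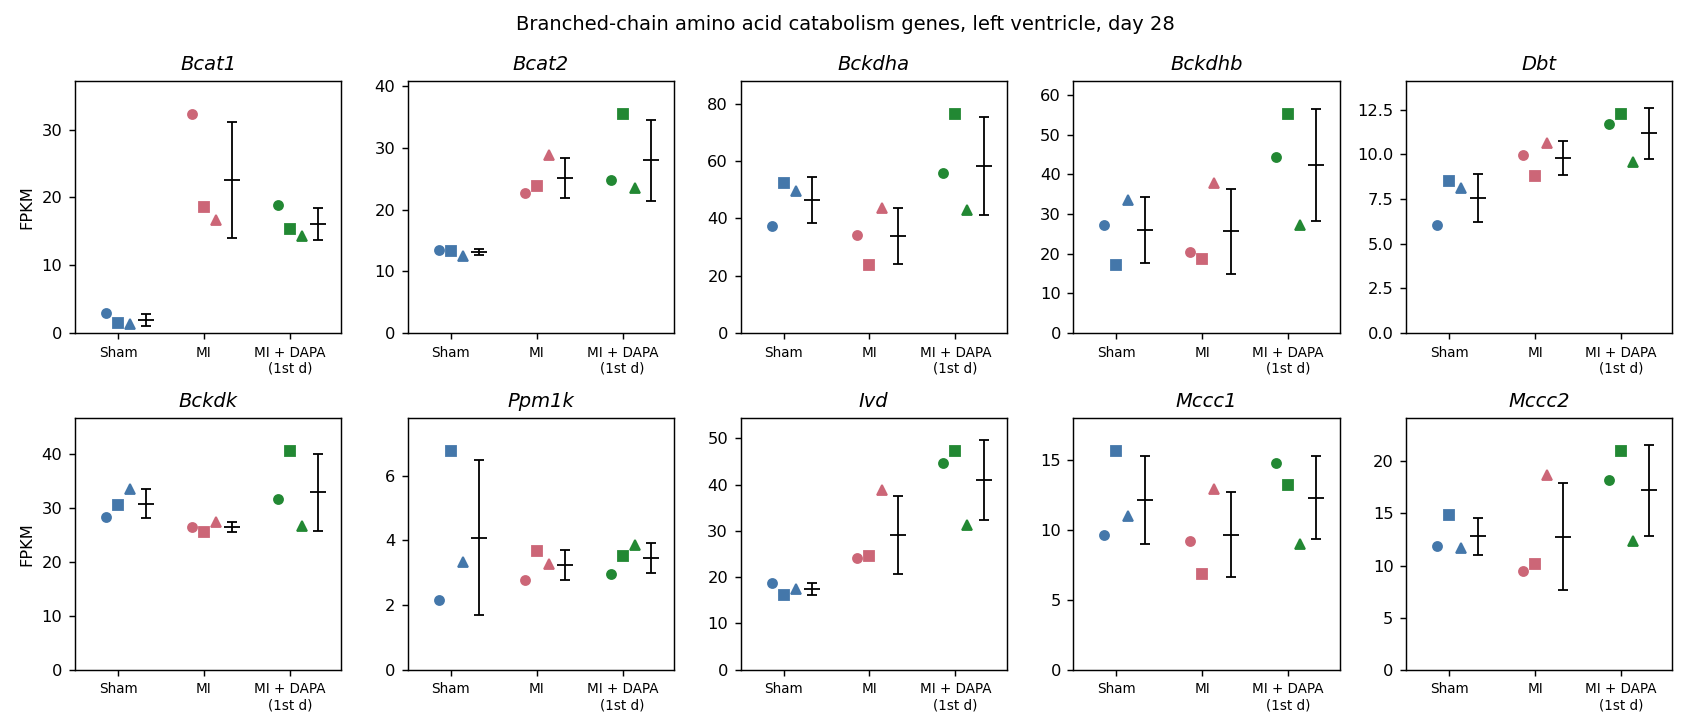
FPKM of the 10 members in each rat (circle, square and triangle for replicates 1, 2 and 3) with the mean and SD of each group (black bar, n = 3). Bcat1 lay between 1.38 and 3.01 in group Sham and between 14.3 and 32.3 in the 6 rats with MI, whereas most BCKDH members overlapped between groups.

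The comparison of group MI with group Sham asks how the pathway stood 28 days after infarction. Of the 10 members, 3 were higher in group MI and 0 lower at an adjusted p under 0.05, against 19.5% of the 13485 genes tested higher and 19.5% lower. All 10 members passed the filter (FPKM 1 or more in 3 or more of the rats compared). Their median log2 fold change, taken like all fold changes on log2(FPKM + 1), was -0.04, and that of all genes tested -0.01. The rats of both groups did not overlap for 5 of the 10 members (4 higher, 1 lower), and for 54.6% of all genes tested. Both shares of the members were near the background. With values centred on the markers of heart muscle cells 1 member passed, where 401 of 13485 genes were called higher and 144 lower. With values scaled to all recovered reads 9 members passed and all 10 were positive. Under that scaling 9039 of 13535 genes were called higher and 520 lower, and the median of all genes was 0.92.

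Bcat1 (ENSRNOG00000015514), the cytosolic aminotransferase, showed the largest difference of the members. It was at 3.01, 1.52 and 1.38 FPKM in Sham replicates 1, 2 and 3 and at 32.3, 18.6 and 16.7 in the MI rats. Every MI rat was above every Sham rat, and the mean was 11.5-fold higher (log2 fold change 2.97 ± 0.31 SE, adjusted p = 0.00126). The reads behind these values were 83, 41 and 32 in group Sham and 1646, 865 and 843 in group MI. Bcat1 kept its direction and an adjusted p under 0.05 in all 15 alternative settings and left-out rats.

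Bcat2 (ENSRNOG00000020956), the mitochondrial aminotransferase of the muscle cell, also rose. Its levels were 13.4, 13.3 and 12.5 FPKM in the Sham rats and 22.6, 23.9 and 28.8 in the MI rats. The groups did not overlap, and the mean was 1.92-fold higher (log2 fold change 0.88 ± 0.14 SE, adjusted p = 0.0044). Centred on the cardiomyocyte markers, its difference was 1.11 with a larger SE of 0.71, and it did not pass (adjusted p = 0.597).

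Ivd (ENSRNOG00000009421), isovaleryl-CoA dehydrogenase, was at 18.7, 16.1 and 17.5 FPKM in the Sham rats and at 24.1, 24.5 and 38.9 in the MI rats. All MI rats were higher, replicate 3 by the most, and the mean was 1.67-fold higher (log2 fold change 0.67 ± 0.21 SE, adjusted p = 0.0388). This call was close to the threshold and was lost in 9 of 15 alternatives, among them the leaving out of Sham replicate 1, 2 or 3 (adjusted p 0.0667, 0.0995 and 0.0944) and of MI replicate 1 or 3 (0.0524 and 0.0755), with the direction kept in all 15. The neighbouring carboxylase subunits did not pass the test. Mccc1 (ENSRNOG00000013293) was at 9.65, 15.6 and 11.01 FPKM in group Sham and 9.22, 6.85 and 12.9 in group MI, with a log2 fold change of -0.31 (95% interval -0.93 to 0.30). Mccc2 (ENSRNOG00000017752) was at 11.8, 14.9 and 11.7 against 9.51, 10.2 and 18.7 FPKM, with a log2 fold change of -0.05 (-0.67 to 0.56).

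The subunits of the BCKDH complex did not pass the test in group MI. Bckdha (ENSRNOG00000020607) was at 37.1, 52.4 and 49.6 FPKM in group Sham and at 34.3, 23.8 and 43.4 in group MI. Its values overlapped, with a log2 fold change of -0.47 (95% interval -1.04 to 0.11, adjusted p = 0.170). Bckdhb (ENSRNOG00000009928) was at 27.1, 17.1 and 33.5 FPKM against 20.3, 18.6 and 38.0, with a log2 fold change of -0.04 (-0.82 to 0.75). Both E1 subunits thus had their lowest MI value in replicate 2 and their highest in replicate 3. Dbt (ENSRNOG00000015029), the E2 core, was at 6.03, 8.53 and 8.11 FPKM in group Sham and 9.99, 8.77 and 10.6 in group MI. The 3 MI rats of Dbt were all higher, but the difference of 0.34 (-0.07 to 0.75) did not pass (adjusted p = 0.158). These intervals do not show that the subunits were alike in both groups: a change by 1 log2 unit in Bckdha lies within its interval.

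The switch of the complex, Bckdk and Ppm1k, likewise gave no call. Bckdk (ENSRNOG00000019485) was at 28.3, 30.7 and 33.6 FPKM in group Sham and at 26.5, 25.5 and 27.4 in group MI. Each MI rat was below each Sham rat, by a log2 fold change of -0.21 (95% interval -0.52 to 0.10, adjusted p = 0.240). The sign of this difference depends on the scaling. It was 0.86 and passed (adjusted p = 0.00124) when scaled to all recovered reads, where the median of all genes was 0.92. Centred on the cardiomyocyte markers it was 0.020, where the median of all genes was 0.22. Ppm1k (ENSRNOG00000006893) was at 2.15, 6.78 and 3.35 FPKM in group Sham and at 2.76, 3.67 and 3.29 in group MI. Sham replicate 2 stood high for the phosphatase, with 189 reads (exact Poisson 95% interval 163 to 218) against 61 and 80, so the difference of -0.17 (-0.94 to 0.61) turned to 0.19 without it. The FPKM of the kinase over that of the phosphatase was 13.2, 4.52 and 10.03 in the Sham rats, 9.60, 6.96 and 8.34 in the MI rats and 10.6, 11.5 and 6.88 in the MI + DAPA (1st d) rats. The 3 groups overlapped in this ratio. On the log2 scale the phosphatase over the kinase differed by 0.04 between MI and Sham rats (two-sided exact permutation test, p = 0.9) and by -0.21 between treated and untreated MI rats (p = 0.5), where 3 rats against 3 allow no p below 0.1. The first of these changed sign when Sham replicate 1 or 3 or MI replicate 2 was left out.

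The proportion of the cytosolic to the mitochondrial aminotransferase was also compared. Bcat1 made up 18.3%, 10.2% and 9.91% of the summed FPKM of both aminotransferases in the Sham rats, 58.8%, 43.8% and 36.7% in the MI rats and 43.1%, 30.1% and 37.7% in the MI + DAPA (1st d) rats. Every rat with MI, treated or not, was above every Sham rat, while the treated and untreated MI rats overlapped. The log2 ratio of Bcat1 over Bcat2 differed by 2.09 between MI and Sham rats (two-sided exact permutation test, p = 0.1, the smallest that this design allows), being higher with MI, and by -0.54 between treated and untreated MI rats (p = 0.4).

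**Figure D2:**
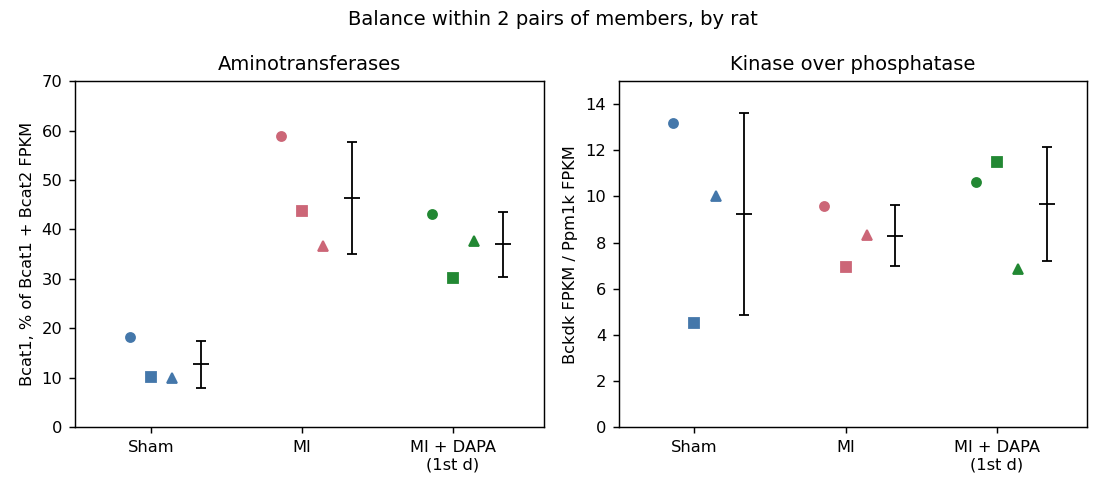
Left, the share of Bcat1 in the summed FPKM of both aminotransferases, and right, the FPKM of Bckdk divided by that of Ppm1k, for each rat (circle, square and triangle for replicates 1, 2 and 3) with the mean and SD of each group (n = 3). The Bcat1 share was 9.91% to 18.3% in group Sham and 30.1% to 58.8% in the rats with MI; the kinase to phosphatase ratio overlapped in all groups.

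Markers of other cell types differed in the same comparison as Bcat1. Macrophage markers were higher in group MI for 12 of 12 genes, with a summed level of 165 to 531 FPKM in group Sham and 2079 to 3710 in group MI, and fibroblast markers for 11 of 12, at 478 to 776 and 3948 to 7708 FPKM. Csf1r, which defines macrophages, was at 6.56 to 16.4 FPKM in group Sham and 47.5 to 88.0 in group MI, and Pdgfra, which defines fibroblasts, at 5.22 to 6.85 and 38.4 to 58.5. Endothelial markers were lower for 7 of 7 genes, from 1099 to 1297 FPKM in group Sham to 295 to 380 in group MI. Smooth muscle markers were lower for 1 of 5 genes, at 393 to 1420 against 506 to 693 FPKM. Of the 3 adipocyte markers tested 1 was higher and 2 lower. The full list of 8 adipocyte markers summed to 4019 to 5688 FPKM in group Sham and 402 to 779 in group MI, although Adipoq was listed at 0 in all Sham rats. Of 7 lymphocyte markers tested, 3 were higher. The 26 cardiomyocyte markers had 3 higher and 5 lower, with a summed level of 10384 to 14767 FPKM in group Sham and 3600 to 18043 in group MI. Bcat1 is known from activated macrophages as well as from tumours, but the part that these cells have in its difference was not tested. In replicates 1, 2 and 3 the summed macrophage markers were 531, 218 and 165 FPKM in group Sham and 2079, 3710 and 2122 in group MI. They were 1629, 1154 and 2108 FPKM in group MI + DAPA (1st d). The rats ranked by Bcat1 as by these sums in group Sham, but not in the other groups, where Bcat1 was highest in replicate 1.

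In the comparison of group MI + DAPA (1st d) with group MI, which asks what treatment from the first day changed, 0 of the 10 members passed, as did 0% of the 13251 genes tested with limma. At an unadjusted limma p under 0.05, 1 member was higher and 0 lower, against 4.59% of all genes higher and 3.9% lower. The rats of the groups overlapped for all 10 members, and did not overlap for 13.8% of all genes tested. The mean was higher in the treated group for 9 members and lower for Bcat1, with a median log2 fold change of 0.31 against -0.02 over all genes tested. Scaled to all recovered reads, 6 members were positive and 4 negative, with a median of 0.098 against -0.21 over all genes. This comparison uses the same MI rats as the one with group Sham, so low values in the MI rats raise one and lower the other.

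The member at an unadjusted limma p under 0.05 was Bckdha, at 55.7, 76.4 and 42.8 FPKM in the treated rats beside the 34.3, 23.8 and 43.4 of group MI. Treated replicate 3 lay just under MI replicate 3, and the other treated rats were above all MI rats (1.72-fold in the means, log2 fold change 0.77 ± 0.28 SE, adjusted p = 0.558). Its partner Bckdhb was at 44.3, 55.3 and 27.3 FPKM, with a log2 fold change of 0.71 (95% interval -0.11 to 1.53). Dbt was at 11.7, 12.3 and 9.58 FPKM and differed from group MI by only 0.17 (-0.18 to 0.52). The 3 structural subunits therefore had different point values, whose intervals overlap.

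In the leucine branch, Ivd was at 44.6, 47.4 and 31.2 FPKM in the treated rats, a log2 fold change of 0.49 (95% interval -0.09 to 1.08) over group MI. Mccc1 was at 14.7, 13.2 and 8.95 FPKM (0.33, -0.29 to 0.96) and Mccc2 at 18.2, 21.0 and 12.4 (0.43, -0.27 to 1.13). In all 3 genes treated replicate 3 was the lowest of its group and MI replicate 3 the highest of its own. Bckdk was at 31.6, 40.7 and 26.6 FPKM (0.28, -0.13 to 0.70) and Ppm1k at 2.97, 3.53 and 3.87 (0.07, -0.31 to 0.46). For the aminotransferases, Bcat2 was at 24.8, 35.5 and 23.6 FPKM (0.13, -0.32 to 0.59) and Bcat1 at 18.8, 15.3 and 14.3 (-0.41, -1.02 to 0.20). The Bcat1 values of the treated rats were close to those of MI replicates 2 and 3, at 18.6 and 16.7 FPKM, and below MI replicate 1.

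**Figure D3:**
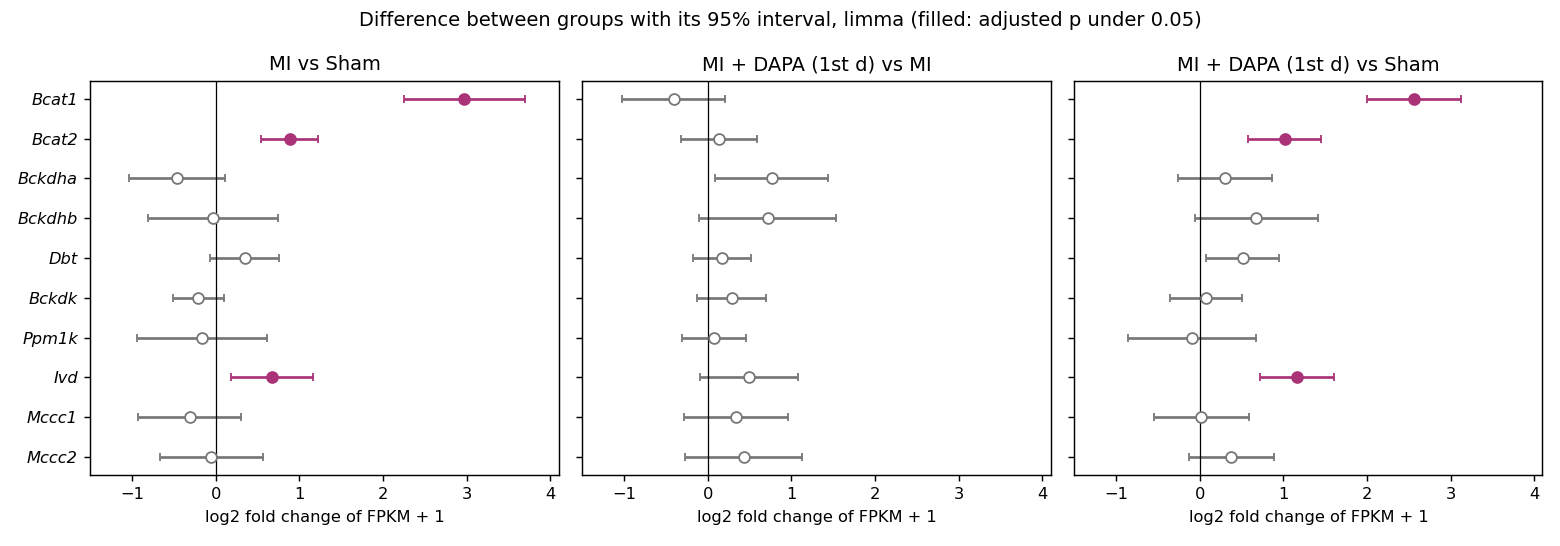
Log2 fold change of FPKM + 1 of each member with its 95% interval from limma in the 3 comparisons, filled where the adjusted p is under 0.05. Bcat1, Bcat2 and Ivd are filled in both comparisons with group Sham (3 of 10 members each), and 0 of 10 members passed between the treated and untreated rats with MI.

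The sum of the members, to which the high genes contribute most, was set beside the markers of heart muscle cells in each rat. The summed FPKM of the 10 members was 192, 164 and 239 in MI replicates 1, 2 and 3 and 267, 321 and 201 in the treated rats, and the summed cardiomyocyte markers were 9857, 3600 and 18043 and then 25908, 29021 and 14104 FPKM. The rats ranked alike by both sums within each of the 2 groups, but not for every member: Ppm1k was highest in MI replicate 2 and treated replicate 3, which were lowest in those markers, and Bcat1 was highest in replicate 1 of both groups. Reads of the mitochondrial genome gave the same ranking, at 15.4%, 7.07% and 19.1% in group MI and 27.2%, 32.0% and 17.5% in group MI + DAPA (1st d). Of the 26 cardiomyocyte markers 25 had a higher mean in the treated group, with a median log2 fold change of 1.18, and when the values were centred on these markers all 10 members had a negative difference, with a median of -0.78 beside -1.11 for all genes. Without MI replicate 2, the library lowest in cardiomyocyte markers, the median of the members was 0.20, with 9 of 10 above 0.

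Other oxidation pathways of the mitochondrion were set beside the members. In the comparison of the treated group with group MI, the 17 TCA cycle genes had a median log2 fold change of 0.74 (16 positive, 5 at an unadjusted limma p under 0.05) and the 16 fatty acid oxidation genes tested one of 0.89 (16 positive, 11 at that p), beside 0.31 for the members. None of these genes passed the adjusted test, and 4.59% of all genes tested were higher at that unadjusted p. Between group MI and group Sham, the TCA cycle genes had a median of 0.01, with 2 called higher and 1 lower, and the fatty acid oxidation genes one of -0.03, with 0 higher and 3 lower. Of all genes tested there, 19.5% were called in each direction. In the comparison of group MI + DAPA (1st d) with group Sham, the medians were 0.70 for the TCA cycle (7 of 17 higher), 0.55 for fatty acid oxidation (3 of 16 higher) and 0.45 for the members. Of all genes tested there, 14.5% were called higher. The difference between lists was not tested.

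**Figure D4:**
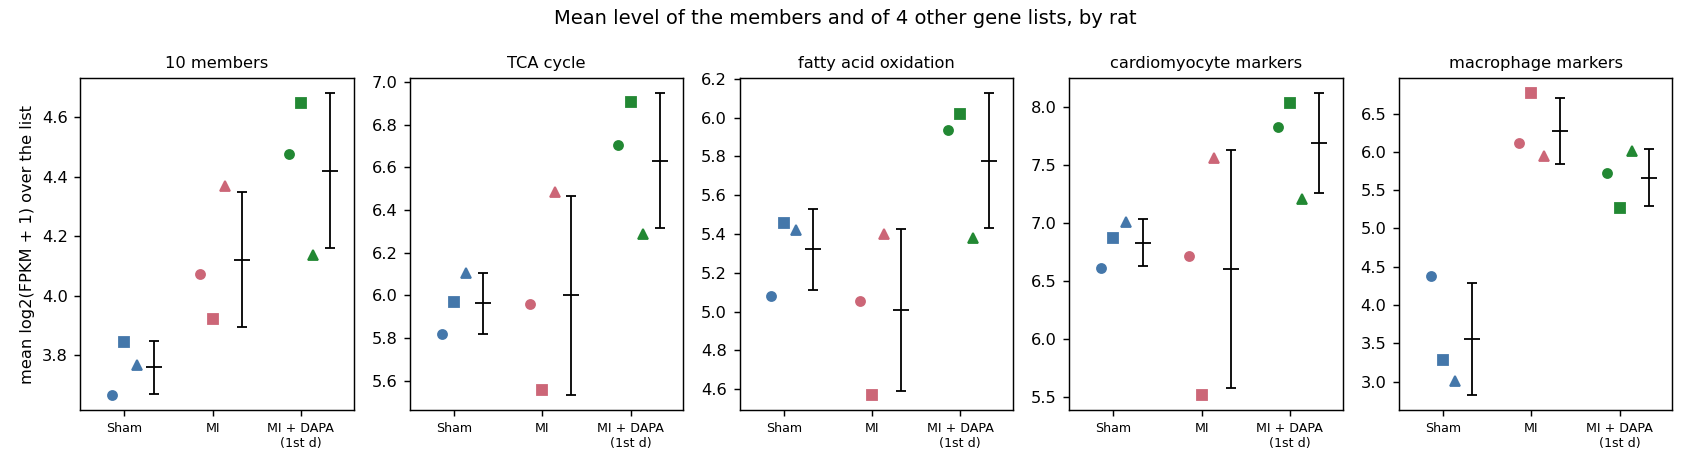
Mean log2(FPKM + 1) over the 10 members and over 4 other gene lists in each rat (circle, square and triangle for replicates 1, 2 and 3), with the mean and SD of each group (n = 3); the vertical axes differ and do not start at 0. In the members, the TCA cycle, fatty acid oxidation and cardiomyocyte panels replicate 2 was the lowest of group MI and replicate 3 its highest, while replicate 2 was the highest of group MI + DAPA (1st d).

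Against group Sham, the treated rats had the same 3 members called higher as group MI, with which the comparison shares the Sham rats. The share of all 13359 genes called was 14.5% higher and 14.1% lower. Bcat1 was 8.20-fold higher (log2 fold change 2.56 ± 0.24 SE, adjusted p = 0.00159), Bcat2 2.14-fold (1.02 ± 0.19, adjusted p = 0.00836) and Ivd 2.35-fold (1.17 ± 0.19, adjusted p = 0.00573). Centred on the cardiomyocyte markers, Bcat2 (0.16, adjusted p = 0.706) and Ivd (0.31, adjusted p = 0.424) did not pass, and Bckdk passed as lower (-0.79). Under that centring 5884 of 13359 genes were called lower and 281 higher. The median of all genes was -0.85, and Bckdk lay near that median. Dbt, whose treated rats were all above the Sham rats, had a log2 fold change of 0.52 (95% interval 0.08 to 0.95, adjusted p = 0.0767). With Bcat1, Bcat2 and Ivd, these were the 4 of 10 members whose rats did not overlap, against 46.5% of all genes tested. Bckdha, Bckdhb, Bckdk, Ppm1k, Mccc1 and Mccc2 overlapped, with log2 fold changes between -0.09 and 0.68.

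The other genes of the pathway were taken from a list of 28, of which 26 passed the filter in the comparison of group MI with group Sham. There, 8 were higher and 2 lower, beside 19.5% of all genes tested in each direction. Of the 8, Hlcs had no Sham rat at an FPKM of 1 or more, Slc7a5 and Acadsb had 1, and Slc7a8, Slc25a44 and Hsd17b10 had 2. All of these reached the 3 rats of the filter only with rats of the group where they were high. The calls of Hlcs, Slc7a5, Acadsb, Slc7a8, Slc25a44 and Hsd17b10 therefore give no support. Centred on the cardiomyocyte markers 0 passed, where 401 of 13485 genes were called higher and 144 lower. Scaled to all recovered reads 21 passed, where 9039 of 13535 genes were called higher and 520 lower. Without MI replicate 1, 2 or 3 the counts were 6, 5 and 5. Of the 5 transporters 4 were called higher, and all 5 had a positive difference. Of the 4, only Slc3a2 passed the filter without the MI rats. Slc7a5, the light chain of the leucine transporter LAT1 of the cell surface, was at 1.38, 0.704 and 0.427 FPKM in group Sham and 6.64, 10.5 and 4.25 in group MI (log2 fold change 2.10 ± 0.33 SE). Its heavy chain Slc3a2 was at 17.6, 20.2 and 17.2 against 47.3, 66.8 and 44.8 FPKM (1.46 ± 0.18). Neither chain overlapped between the groups, and the highest value of both was in MI replicate 2, which also had the highest macrophage and lymphocyte markers, whose part was not tested. Slc7a8, the light chain LAT2, differed by 1.12 and Slc25a44, the mitochondrial BCAA carrier, by 0.83, whereas Slc43a1, another neutral amino acid transporter, was at 0.72 and did not pass (adjusted p = 0.0569).

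Below the shared steps each branch held few genes and few calls, beside 19.5% of all genes tested in each direction. The calls therefore do not tell the branches apart. In the isoleucine branch, Acadsb, which oxidises the short branched acyl-CoA, differed by 1.11 and Hsd17b10, the next dehydrogenase, by 1.12, both called higher from low levels (0.239 to 1.17 and 0.513 to 2.20 FPKM in group Sham, at most 21 reads each). Since both genes reached the filter only with the MI rats, their calls give no support. In the valine branch, 1 of 4 genes was called, Hibadh, 3-hydroxyisobutyrate dehydrogenase, at 21.1, 18.7 and 20.4 FPKM in group Sham and 29.9, 29.1 and 38.9 in group MI (log2 fold change 0.67). Of the 6 genes that take propionyl-CoA to succinyl-CoA, Mmaa, which serves the B12 cofactor of methylmalonyl-CoA mutase, was lower, at 4.43, 5.88 and 4.56 FPKM in group Sham and 1.71, 1.09 and 2.51 in group MI (log2 fold change -1.13). Of the cofactor genes, Hlcs, which attaches biotin to the carboxylases, was at 0.103 to 0.201 FPKM (3 to 5 reads) in the Sham rats and 1.07 to 1.58 in the MI rats, and since it passed the filter through the MI rats alone, its call of a higher level gives no support, and Lipt2, of lipoate synthesis, lower by a log2 fold change of -0.67. Klf15, a transcription factor known to drive BCAA catabolic genes in heart, was at 3.42, 19.5 and 11.1 FPKM in group Sham, 15.3, 6.69 and 12.96 in group MI and 5.67, 15.4 and 6.88 in group MI + DAPA (1st d), a spread within each group larger than any difference between groups.

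**Figure D5:**
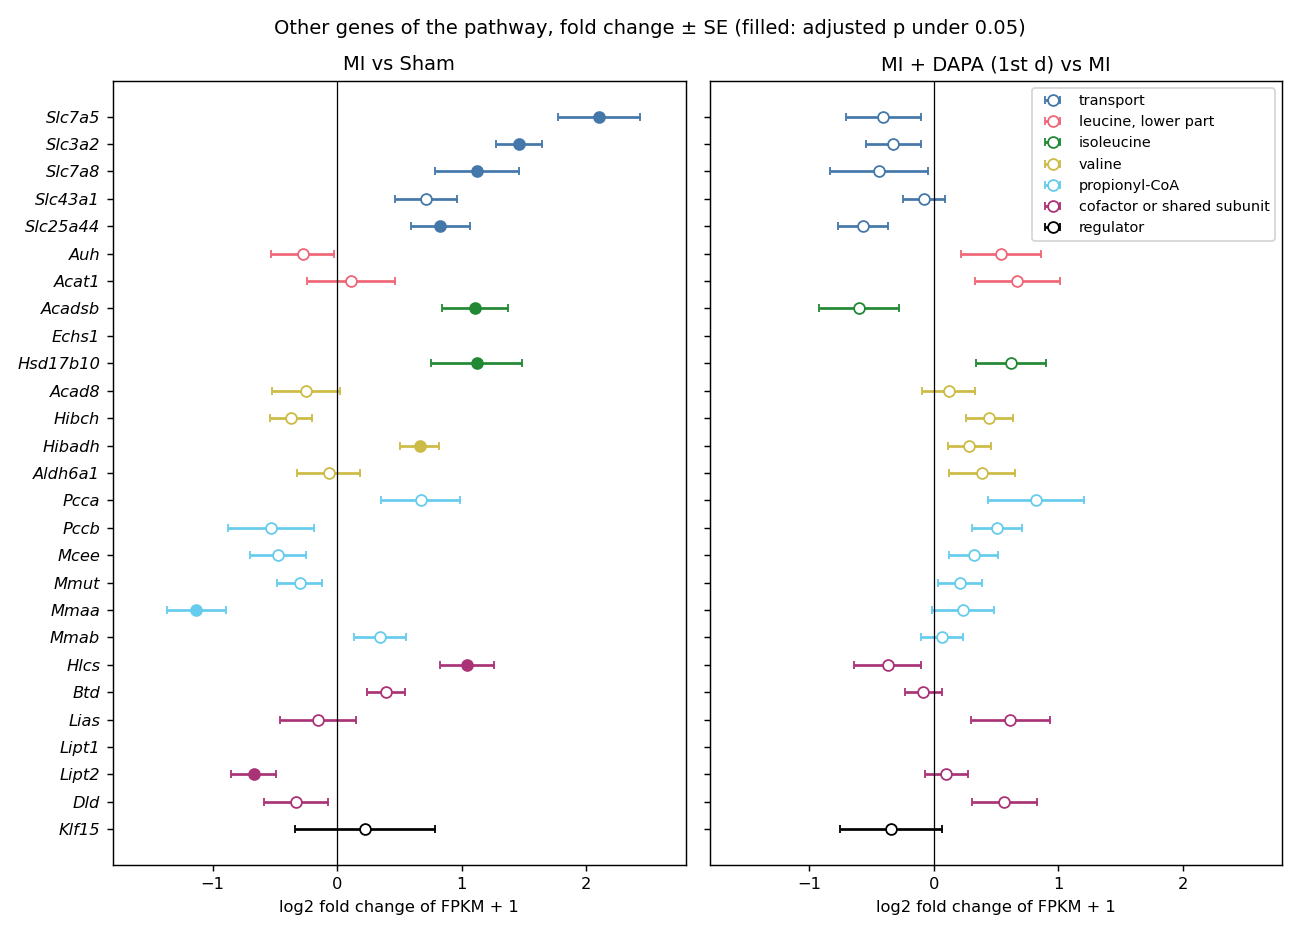
Log2 fold change of FPKM + 1 with its SE from limma for the other pathway genes, coloured by step and filled where the adjusted p is under 0.05, in 2 comparisons that share the MI rats (Echs1 and Lipt1 did not pass the filter, and 1 gene of the list is not shown). All 5 transporters lay above 0 in MI vs. Sham, 4 of them filled. Slc7a5, Slc7a8, Slc25a44, Acadsb, Hsd17b10 and Hlcs passed the filter there only with the MI rats, so their filled points give no support. In MI + DAPA (1st d) vs. MI none of the genes shown is filled.

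Between the treated and untreated MI rats, 0 of 26 of these genes passed with limma, 1 was higher and 1 lower at an unadjusted limma p under 0.05, and 17 had a positive difference, with a median of 0.22. The lower gene was Slc25a44, at 1.69, 1.55 and 2.58 FPKM in the treated rats and 3.27, 3.99 and 2.75 in group MI (log2 fold change -0.57 ± 0.20 SE, adjusted p = 0.558). The higher was Pccb, a subunit of propionyl-CoA carboxylase, at 23.1, 29.0 and 19.0 against 14.8, 14.3 and 19.7 FPKM (0.51 ± 0.20, adjusted p = 0.558). Slc25a44 did not overlap between the groups and Pccb did. The next genes by p were Hibch of the valine branch, at 12.7, 17.7 and 12.5 against 9.28, 9.07 and 12.3 FPKM (0.44), Hsd17b10 (0.62) and Dld, the E3 subunit that the BCKDH complex shares with other dehydrogenases (0.57). All 5 transporters had a negative difference, from -0.57 to -0.08, and all 6 propionyl-CoA genes a positive one, from 0.07 to 0.82. In the same comparison all 12 macrophage markers had a negative difference (median -0.71), with a summed level of 2079 to 3710 FPKM in the untreated and 1154 to 2108 in the treated rats. So did all 12 fibroblast markers (median -0.56), at 3948 to 7708 and 2500 to 4259 FPKM, and all 7 lymphocyte markers tested (median -1.85), where the 9 in the table summed to 44.5 to 3739 and 17.1 to 24.1 FPKM. All 7 endothelial markers had a positive difference (median 0.37), at 295 to 380 and 393 to 432 FPKM. None of these markers passed, and their part in the differences of the transporters and of Bcat1 was not tested.

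The genes outside all lists whose levels most resembled those of 4 members over the 9 rats, by Pearson's r of log2(FPKM + 1) among 11736 candidates, were Mtch1, C1qtnf7 and Clec11a for Bcat1 (r = 0.994 for each). For Bcat2 they were St6galnac6 (0.985), Zdhhc7 (0.978) and Bex3 (0.969), and for Bckdhb Pmpcb (0.964), Qdpr (0.963) and Mrpl35 (0.958). For Ppm1k they were Cntln (0.931), Wdhd1 (0.929) and Zfp451 (0.914). Pmpcb and Mrpl35, like Mtch1 among the matches of Bcat1, encode mitochondrial proteins. The 9 points of each r fall into 3 groups that differ in depth and in marker levels, so genes that differ between group Sham and the rats with MI can reach a high r with each other.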

How the data were processed

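RNA-seq of poly-A selected RNA from left ventricles of 9 rats was deposited by the authors as FPKM values, 1 column per rat. Per the submitters' processing notes, HISAT2 2.0.5, StringTie 1.3.3b, featureCounts 1.5.0-p3 and DESeq2 were used, without stated roles. The genome build is not given in the sources used here, so no gene coordinates are taken from the files. The library kit does not mark strand, so reads of overlapping genes on opposite strands cannot be told apart. The FPKM denominators followed the reads outside the mitochondrial genome more closely than the total. Whole reads were recovered within a tolerance of 0.02 for 18896 of 18896 genes with a value in at least 4 rats, and 0 columns were left out. Since FPKM are not counts, limma 3.58.1 in R 4.3.3 was run on log2(FPKM + 1), a scale that understates changes of low genes, in the 2 groups compared, with a variance prior that follows the mean, over genes whose FPKM was 1 or more in 3 or more of the rats compared. Benjamini-Hochberg adjustment covered all genes tested, and the fit was tested on simulated data. Ratios of 2 genes were compared per rat by exact permutation with scipy 1.17.1. The study's own calling rule is among the alternatives. The study gives 3 biological replicates per group. Each sample title holds 2 names, such as Sham1-1 and Sham1-2, whose meaning is not explained, so a column called a rat here could join 2 libraries, runs or animals.

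The 10 members, the wider list, the TCA cycle and fatty acid oxidation lists and the marker lists for cardiomyocytes, fibroblasts, smooth muscle, endothelium, macrophages, lymphocytes and adipocytes were chosen with earlier results of these data known. Named are all members, wider-list genes called in MI vs. Sham or MI + DAPA (1st d) vs. MI, the 5 with the smallest p in the latter, defining markers, and the 3 genes most like Bcat1, Bcat2, Bckdhb and Ppm1k; Slc43a1 and Klf15 were named after their values were seen. Alternatives were a replicate block, a pseudocount of 0.1, no filter, a single fit of all 9 rats, removal of the mitochondrial genome with rescaling, median-of-ratios scaling, centring on cardiomyocyte markers, a variance prior without trend, other call rules and each rat left out. Scaling to all recovered reads was added after seeing the data. Promoter windows came from RefSeq (GRCr8). One gene of the wider list is counted in its totals but not reported here.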

Additional observations from a re-analysis of the deposited data

How the results depend on the processing

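Most settings left the calls in place, and the causes of the changes that follow were not tested. The members called in MI vs. Sham went from 3 to 1 when values were centred on the cardiomyocyte markers, where 401 of 13485 genes were called higher and 144 lower. They went to 1 under the cut-offs of the study (an unadjusted p together with a log2 change beyond 1 either way), applied here to limma values and not to its DESeq2 results. Scaled to all recovered reads they went to 9, where 9039 of 13535 genes were called higher and 520 lower. That last scaling, chosen after seeing the data, moved the median of all genes by 0.92 in this comparison. It took the members called in MI + DAPA (1st d) vs. Sham from 3 to 9, where 7125 of 13050 genes were called higher and 429 lower. For MI + DAPA (1st d) vs. MI, 1 member passed at an unadjusted p. The wider list in MI vs. Sham gave 10 calls, 6 without a filter, 0 under centring, 21 under scaling to all reads and 5 to 9 with 1 rat left out (6 without MI replicate 1 and 5 without MI replicate 2 or 3), and for treated vs. untreated MI rats 0 calls, or 2 at an unadjusted p. Members called with 1 rat left out were 2 to 3, 0 and 3 in the 3 comparisons.

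Signs of log2 fold changes that did not pass turned under some settings. Centring in MI vs. Sham gave Bckdhb 0.19, Bckdk 0.020, Ppm1k 0.063 and Mccc2 0.18. Centring in MI + DAPA (1st d) vs. MI gave Bcat2 -0.95, Bckdha -0.32, Bckdhb -0.38, Dbt -0.92, Bckdk -0.81, Ppm1k -1.02, Ivd -0.60, Mccc1 -0.76 and Mccc2 -0.66. Against Sham, centring the treated rats gave Bckdha -0.56, Bckdhb -0.18, Dbt -0.35, Bckdk -0.79, Mccc1 -0.84 and Mccc2 -0.48. Scaling to all recovered reads gave in MI vs. Sham Bckdha 0.61, Bckdhb 1.03, Bckdk 0.86, Ppm1k 0.67, Mccc1 0.69 and Mccc2 0.97. For treated vs. untreated MI rats it gave Bcat2 -0.084, Dbt -0.036 and Ppm1k -0.10, and for treated rats vs. Sham Ppm1k 0.57. Under this scaling the medians of all genes were 0.92 in MI vs. Sham, -0.21 in treated vs. untreated MI rats and 0.74 in treated rats vs. Sham. Without the mitochondrial genome, the last comparison gave Bckdk -0.020 and Mccc1 -0.071. With 1 rat left out, the ranges that crossed 0 were, in MI vs. Sham, -0.35 to 0.17 for Bckdhb, -0.46 to 0.19 for Ppm1k, -0.34 to 0.11 for Mccc2 and -0.19 to 0.40 for the log2 ratio of Ppm1k over Bckdk. They were -0.044 to 0.24 for Bcat2 and -0.011 to 0.15 for Ppm1k between treated and untreated MI rats, and -0.083 to 0.21 for Bckdk, -0.39 to 0.26 for Ppm1k and -0.12 to 0.22 for Mccc1 in MI + DAPA (1st d) vs. Sham.

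The replicate numbers do not pair the rats: same-numbered rats correlated in their deviations from the group means by -0.30 to 0.19. With the replicate block, 2, 0 and 3 members were called in the 3 comparisons and 9 and 0 wider-list genes in the first and the second. Low depth in group Sham limits the genes of few reads, such as Hlcs, Acadsb and Hsd17b10.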

Other observations

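Echs1, the short-chain enoyl-CoA hydratase that isoleucine and valine oxidation share with fatty acid oxidation, was listed at 6.13 FPKM in Sham replicate 1 (96 reads) and at 0.0759 to 0.591 FPKM in the other 8 rats (1 to 16 reads), and so did not pass the filter. This gene was picked out after its values were seen, and whether its row covers all of its transcripts is unknown. Pcca, the other propionyl-CoA carboxylase subunit, was also picked out so: it was at 6.53, 6.22 and 5.29 FPKM in group Sham, 9.83, 6.18 and 16.8 in group MI and 20.5, 25.6 and 12.4 in group MI + DAPA (1st d). It was higher in the treated group than in group Sham (log2 fold change 1.49, adjusted p = 0.00698), without overlap, whereas its partner Pccb had a difference of -0.02 in that comparison.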
